A study of Mus musculus with 4 samples.

Results

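MC38 cells that received IFN-γ and hypoxia together were compared with untreated MC38 cells under normoxic conditions. These are 2 of the 4 RNA-seq libraries of the series, chosen by their sample labels, and all 27179 genes of the count table entered. MC38 is a mouse colon carcinoma line, labelled WT and obtained by the authors as a gift, and no condition had a replicate. The untreated library came from cells at 20% oxygen without IFN-γ. The combined library came from cells given IFN-γ at 1.5% oxygen, and the study used 5 ng/mL for 24 h in most of its experiments, while the labels give no dose. The remaining libraries carried a single stimulus each, hypoxia alone or IFN-γ alone, and serve below to sort the changes of the combination.

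The deposited values are whole-number counts of reads per gene. They summed to 34302971 in the untreated library, 34514248 under hypoxia alone, 34537939 with IFN-γ alone and 34420642 with both, so the depths were nearly equal. A gene was taken as measured when it had a mean of at least 20 counts over the 4 libraries, which left 12553 genes. A gene nearly absent from the untreated library could pass through the libraries where it was high, which favors rises among such genes. Changes are log2 ratios of scaled counts, and the range in brackets after a ratio is its 95% interval. These intervals, and the floor of 3 counts per library used for genes at 0, cover counting error only and not the variation between cultures.

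The label names a colon cancer cell, and its epithelial markers were nearly absent. Cdh1, Cdx1 and Cdx2 had 0 counts in every library and Epcam had 2 counts in the untreated library and 0 elsewhere. All 10 markers of colon epithelium summed to 132 counts untreated, 118 under hypoxia alone, 113 with IFN-γ alone and 112 with both. Krt8, an uncertain copy, had the most, with 90, 56, 56 and 48. Fibroblast markers summed to 1397, 1526, 1321 and 1244, mainly Pdgfra, and macrophage markers to 290, 336, 298 and 256, mainly Cd68, while Adgre1 and Itgam were at 0. Leukocyte and T cell markers summed to 38, 27, 21 and 17 counts, with Cd8a at 0 throughout, and endothelial ones to 50, 47, 26 and 48, with Kdr at 0 throughout. The combined library had lower sums than the untreated library in all 5 lists, and their part in the results below was not tested. In bulk RNA a change in the number of cells of a kind and in RNA per cell cannot be told apart.

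IFN-γ binds a receptor whose JAK kinases switch on STAT transcription factors, and the interferon regulatory factors made next drive genes for antigen presentation, GTPases that attack intracellular pathogens, and ligands that restrain T cells such as PD-L1. Low oxygen acts through HIF, whose alpha subunits escape prolyl hydroxylation and raise genes for glucose uptake, glycolysis, pH control and mitochondrial removal. Solid tumors infiltrated by T cells expose cancer cells to both signals at once.

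The combination raised 366 genes at least 2-fold, 2.92% of the genes measured, and lowered 63, which is 0.502%. Counts of raised and lowered members in the lists below are to be read beside these shares. At 0.502% a short list would often hold no lowered gene. Raised genes outnumbered lowered ones 5.81 to 1, while the median log2 ratio of all measured genes was 0.00 and 63.4% of genes lay within 0.2 of 0. The rise reached 4-fold in 109 genes, 8-fold in 47 and 32-fold in 17, and the central 95% of all ratios ran from -0.54 to 1.11. Among the strongest rises by ratio were interferon-inducible GTPases, Ido1, an enzyme that degrades tryptophan, the transcription factor Batf2 and the pseudogene BC023105. Ido1 and BC023105 had 0 counts in the untreated library, so the size of their ratios rests on the counts added. The ratio of raised to lowered genes depended on the limits, since 227 raised and 7 lowered genes had an interval wholly past 2-fold, and 215 and 5 had a mean of at least 100 counts. Of the raised genes 62 were uncertain, because at least 20% of their 31-base words also occur in another gene, and another 31 could not be examined for shared words.

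**Figure D1:**
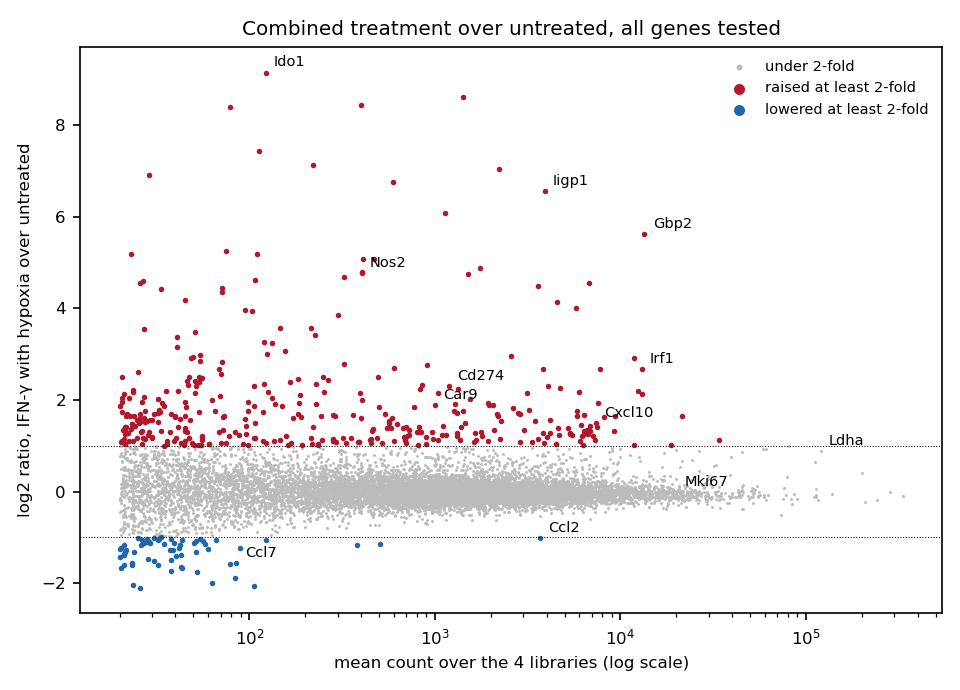
Log2 ratio of the combined library over the untreated library (vertical axis, 0.5 counts added) against the mean count over the 4 libraries (horizontal axis, log scale); each point is 1 of 12553 measured genes, and dotted lines mark 2-fold. The 366 raised genes in red occur at every level, whereas nearly all of the 63 lowered genes in blue lie at low counts, with a median mean count of 37.2.

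The sequences upstream of a few strongly changed genes are shown for the letters of motifs tied to each stimulus. Each run is the 250 bases before a gene start, taken from the RefSeq promoter table of GRCm38.p6 on the + strand, with matches to the searched motifs in capitals. The motifs were TTCNNNGAA, the letters bound by STAT dimers, GAAA repeated after any 2 bases, the letters bound by interferon regulatory factors and here called the paired GAAA motif, and ACGTG and GCGTG, the core letters of HIF response elements, each on both strands. Gm12250 (chr11:58183593-58183842) and Gbp2 (chr3:142620413-142620662), both GTPase genes, are among the firmest rises of genes higher with IFN-γ alone, Gpr35 (chr1:92972869-92973118), a G protein-coupled receptor, is the firmest of those higher with hypoxia alone, and Il13ra1 (chrX:36111858-36112107), a receptor chain for interleukin-13, stands for those within 2-fold between the stimuli. Car9 (chr4:43506776-43507025), a carbonic anhydrase, was added after its values were seen.
Gm12250: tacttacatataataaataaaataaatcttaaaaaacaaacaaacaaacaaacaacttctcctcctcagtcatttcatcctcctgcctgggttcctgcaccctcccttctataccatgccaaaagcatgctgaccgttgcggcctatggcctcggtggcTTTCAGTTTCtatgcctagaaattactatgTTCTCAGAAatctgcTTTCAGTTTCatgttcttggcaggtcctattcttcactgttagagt
Gbp2: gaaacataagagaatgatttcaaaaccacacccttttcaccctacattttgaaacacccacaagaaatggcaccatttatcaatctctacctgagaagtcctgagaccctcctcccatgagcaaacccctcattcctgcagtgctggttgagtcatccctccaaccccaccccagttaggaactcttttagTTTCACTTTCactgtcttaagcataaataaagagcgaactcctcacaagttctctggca
Gpr35: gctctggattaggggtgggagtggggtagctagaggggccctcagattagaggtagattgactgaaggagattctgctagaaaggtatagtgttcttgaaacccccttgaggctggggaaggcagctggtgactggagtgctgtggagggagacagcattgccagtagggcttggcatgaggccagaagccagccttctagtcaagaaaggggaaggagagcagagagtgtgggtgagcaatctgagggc
Il13ra1: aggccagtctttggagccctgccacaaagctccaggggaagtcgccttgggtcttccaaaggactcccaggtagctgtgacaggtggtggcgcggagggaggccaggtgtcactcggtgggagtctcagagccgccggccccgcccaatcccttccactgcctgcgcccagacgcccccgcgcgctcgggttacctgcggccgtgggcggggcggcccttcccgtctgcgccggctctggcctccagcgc
Car9: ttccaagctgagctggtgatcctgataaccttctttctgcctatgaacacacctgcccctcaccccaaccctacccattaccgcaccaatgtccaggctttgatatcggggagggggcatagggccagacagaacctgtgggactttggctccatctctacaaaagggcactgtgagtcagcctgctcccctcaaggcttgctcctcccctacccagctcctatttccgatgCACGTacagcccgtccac

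Gm12250 held TTTCAGTTTC, which is the paired GAAA motif read on the other strand, at 91 to 82 and again at 46 to 37 bases before its start, with TTCTCAGAA between them at 61 to 53. Gbp2 held TTTCACTTTC at 59 to 50 bases before its start, and Car9 held CACGT, the reverse complement of ACGTG, at 18 to 14. The printed windows of Gpr35, for 1 of its 2 listed starts, and of Il13ra1 hold none of the letters searched. A match is a description of the letters and was not tested as a site.

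Across 32851 windows of this length, 7.02% hold TTCNNNGAA and 2.98% hold the paired GAAA motif. Among the 148 windows of raised genes that were higher with IFN-γ alone, the shares were 13.5% and 23%, and among the 59 windows of raised genes higher with hypoxia alone they were 0% and 3.39%. ACGTG or GCGTG occurred in 38.6% of all windows, in 39.9% of the first group and in 66.1% of the second. Windows of measured genes as a whole already held ACGTG or GCGTG more often, at 56.3%, and the paired GAAA motif at 2.61%. The windows of raised genes within 2-fold between the stimuli lay between, with 14% for the paired GAAA motif and 43.4% for ACGTG or GCGTG. Windows were found for 117 of 162, 43 of 54 and 102 of 150 genes of these classes. TTCNNNGAA and the paired GAAA motif overlapped each other in 18 of all windows.

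The 366 raised genes were sorted by the ratio of IFN-γ alone over hypoxia alone, which uses neither of the libraries that made the call. At least 2-fold higher with IFN-γ alone were 162 genes, at least 2-fold higher with hypoxia alone were 54, and 150 lay within 2-fold. The median log2 ratio of the combination was 2.23 in the first class, 1.26 in the second and 1.27 in the third. In the first class 157 genes also passed 2-fold with IFN-γ alone, beside 244 of 12553 measured genes, and the median with hypoxia alone was 0.16. The call used the untreated library and the sorting used the library with IFN-γ alone, which favors that count. In the second class the median was -0.07 for IFN-γ alone and 1.31 for hypoxia alone, against the same untreated library. The third class had medians of 0.86 for IFN-γ alone and 0.60 for hypoxia alone. In it 77 genes reached 2-fold with neither, beside 12198 of all 12553 measured genes. Its genes were also the weakest measured, with a median mean count of 70.1 against 311 and 749 in the other classes, and 46 of its 150 intervals lay wholly past 2-fold, compared with 148 of 162 and 33 of 54.

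The combined library was the highest of the 4 for 145 of the 162 genes in the first class, or 89.5%, for 22 of 54 in the second, or 40.7%, and for 131 of 150 in the third, or 87.3%. Among all measured genes it was the highest for 24.8%, and the raised genes were chosen with its count, which favors it. Combined over IFN-γ alone, the median log2 ratio of the first class was 0.22. Combined over hypoxia alone, that of the second class was -0.03.

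**Figure D2:**
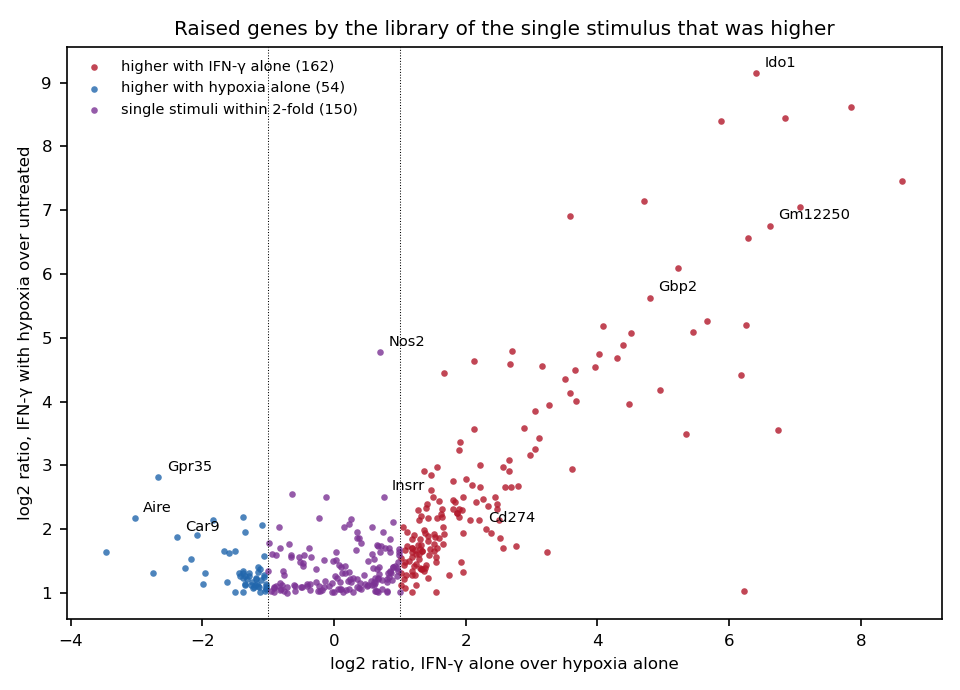
Each point is 1 of the 366 raised genes, placed by its log2 ratio of IFN-γ alone over hypoxia alone (horizontal axis) and of the combination over untreated (vertical axis, 0.5 counts added, which sets the height of genes at 0 in the untreated library). Dotted lines mark 2-fold between the single stimuli; the 162 red genes reach the largest rises, the 54 blue genes stay at or under 2.82, and Nos2 at 4.78 stands above the other purple genes.

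Most genes of the first steps of the IFN-γ pathway stayed under 2-fold. Of 16 members of the receptor, kinase and brake list, 2 rose and none fell at 2-fold, with a median of 0.17. Among all measured genes 2.92% rose and 0.502% fell. Of the 16 intervals 7 lay above 0 and 2 below it, beside 3059 and 3219 of 12553 for all measured genes. Stat2, a STAT that joins the interferon-stimulated gene factor, had 2852 counts untreated, 3224 under hypoxia alone, 7676 with IFN-γ alone and 9489 with both, and rose by a log2 ratio of 1.75 [1.69, 1.81]. Socs1, which blocks JAK kinases, was counted 492, 371, 1220 and 1187 times in the same order, a ratio of 1.29 [1.13, 1.44]. The receptor chains gave 0.00 [-0.12, 0.11] for Ifngr1 and -0.19 [-0.37, -0.01] for Ifngr2. Jak2 reached 0.86 and Stat3, the STAT that the study follows in its drug experiments, 0.75 [0.68, 0.82], with 2400 counts untreated and 3990 with both. Neither passed 2-fold.

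Transcription factors that carry the response onward rose in 8 of 13 measured members, with a median of 1.49. Irf1 (NCBI gene 16362), an early activator of interferon-stimulated genes, had 3770 counts untreated, 4422 under hypoxia alone, 20118 with IFN-γ alone and 23759 with both, a ratio of 2.67 [2.62, 2.72]. Batf2, a partner of AP-1 and IRF factors, was almost absent without IFN-γ, at 1 count untreated and 0 under hypoxia alone, and had 193 with IFN-γ alone and 258 with both. Its ratio of 7.45 has an interval from 5.54 to 13.34 because of that single count. Nlrc5, the transactivator of MHC class I genes, went from 1112 counts untreated to 6987 with both, at 2.67, and Ciita, its class II counterpart, from 7 to 152, at 4.36 [3.38, 5.80]. Irf3 at -0.26 and Irf9 at 0.75 did not reach 2-fold.

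All 18 measured members of the list of interferon-inducible GTPases rose, with a median of 4.98, the highest of any list. Their median was 4.63 with IFN-γ alone and 0.24 with hypoxia alone. Gbp2 (NCBI gene 14469), a guanylate-binding protein recruited to pathogen vacuoles, had 597 counts untreated, 846 under hypoxia alone, 23153 with IFN-γ alone and 29245 with both. Its log2 ratio was 5.63 [5.51, 5.75], a 49.5-fold rise. Iigp1, an immunity-related GTPase, had 92, 88, 6755 and 8711 counts in that order and rose 95.3-fold. Both genes were low in the libraries without IFN-γ and highest in the combined library.

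Gm12250, an immunity-related GTPase outside the list, had 12 counts untreated, 10 under hypoxia alone, 1012 with IFN-γ alone and 1339 with both. Its ratio was 6.76 [6.01, 7.77]. Gbp4 went from 3 counts untreated, and 14 under hypoxia alone, to 372 with IFN-γ alone and 489 with both, a ratio of 7.14 [5.81, 9.65]. The smallest rise of the list was that of Irgm1, a regulator of the other immunity-related GTPases, at 2.67, where IFN-γ alone gave 13415 counts and both gave 13420. The 6 members with shared words, among them Tgtp1 and Tgtp2, are uncertain copies. Between the combination and IFN-γ alone the list had a median of 0.33, and 16 of 18 intervals lay above 0, beside 2867 of 12553 for all measured genes.

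MHC class I presentation rose in 11 of 17 measured members, with a median of 1.44. Psmb9, an immunoproteasome subunit, had 609 counts untreated, 721 under hypoxia alone, 4205 with IFN-γ alone and 4718 with both, a ratio of 2.97 [2.85, 3.09]. The peptide transporter genes followed at 2.20 for Tap1 and 2.30 for Tap2. B2m, the shared light chain, went from 18875 counts to 34361, which at 0.88 [0.86, 0.91] stayed under 2-fold. The heavy chain genes H2-K1 at 0.93 and H2-D1 at 0.75 are uncertain copies and also stayed under it. Calr, Canx and Pdia3, chaperones of general protein folding, lay between 0.02 and 0.10. The list had a median of 1.46 with IFN-γ alone, and combined over IFN-γ alone its median was 0.03.

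MHC class II genes were scarce. Of 7 measured members, 2 rose, Ciita and H2-Aa, and the list median was 0.59. Both reached the minimum count through the libraries with IFN-γ, which favors a rise among the members measured. H2-Aa, a class II chain, had 4 counts untreated, 0 under hypoxia alone and 52 in each library with IFN-γ, a ratio of 3.56 [2.27, 5.65]. Cd74, the invariant chain, had 195 counts untreated and 256 with both, at 0.41 [0.13, 0.69].

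Antiviral effectors and sensors rose in 17 of 30 measured members, with a median of 1.21, and none fell. Zbp1, a sensor of left-handed nucleic acids that can start necroptosis, had 120 counts untreated, 159 under hypoxia alone, 2531 with IFN-γ alone and 3214 with both, a ratio of 4.75 [4.50, 5.03]. Parp14, an ADP-ribosyltransferase, rose by 2.26 and Ifi44 by 1.89, and Rsad2, which makes a chain-terminating nucleotide, by 1.65 [1.59, 1.71]. Oasl1 at 0.03, Ifitm1 at 0.10, Ifit2 at 0.42 and Samhd1 at 0.60 were the lowest members. The list had a median of 0.20 with hypoxia alone, and of 0.11 for the combination over IFN-γ alone.

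Among ligands and enzymes that restrain T cells, 3 of 10 measured members rose, Ido1, Tnfrsf14 and Cd274, and the list median was 0.53. Cd274 (NCBI gene 60533), which encodes PD-L1, had 447 counts untreated, 457 under hypoxia alone, 1658 with IFN-γ alone and 2191 with both. The log2 ratio of the combination was 2.31 [2.16, 2.46], against 1.91 for IFN-γ alone and 0.02 for hypoxia alone over the same untreated library. Combined over IFN-γ alone, Cd274 gave 0.40 [0.31, 0.50]. The untreated and hypoxia libraries thus had like counts, and the combined library had the most. Tnfrsf14, the receptor HVEM, had 29 counts untreated, 42 under hypoxia alone, 194 with IFN-γ alone and 233 with both, with an interval from 2.46 to 3.63. Pvr, the ligand CD155, had 2005 counts untreated, 3181 under hypoxia alone, 1780 with IFN-γ alone and 3212 with both, and its 0.70 stayed under 2-fold. Of the 19 genes listed, 9 were below the minimum count, Pdcd1lg2, which encodes PD-L2, among them with 1 count in the combined library.

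Ido1 (NCBI gene 15930) was not counted in the untreated library and had 2 counts under hypoxia alone, 207 with IFN-γ alone and 280 with both. Against the floor of 3 counts in the untreated library, the combination was 94.4-fold higher. The 95% interval of the ratio reached below this value, with its lower end at 6.25 on the log2 scale. BC023105, annotated as a pseudogene, and Hrh2, a histamine receptor, were the other raised genes at 0 in the untreated library. Hrh2 was named after its values were seen. They had 167 and 59 counts in the combined library, 56.3-fold and 19.9-fold higher against the same floor. Their intervals again reached below these folds, with lower ends of 5.50 and 3.97 on the log2 scale.

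Nos2 (NCBI gene 18126), the inducible nitric oxide synthase, responded to each stimulus. It had 40 counts untreated, 184 under hypoxia alone, 292 with IFN-γ alone and 1099 with both. The log2 ratio was 4.78 [4.34, 5.29] for the combination, 2.87 for IFN-γ alone and 2.17 for hypoxia alone. Combined over IFN-γ alone it was 1.91 [1.73, 2.10], and the combined change minus the sum of the single changes was -0.26 [-0.79, 0.26]. The list of nitric oxide, tryptophan and arginine enzymes had 4 raised members of 8, these being Ido1, Nos2, Ido2 at 2.79 and Acod1, the itaconate enzyme, at 2.31. Its median was 1.47 or 0.63 when a mean of at least 100 counts was asked. Arginine recycling did not follow, with Asl at 0.04 and Ass1, an uncertain copy, at -0.42, and Gch1, which makes the cofactor of nitric oxide synthase, stood at -0.02.

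Chemokines, growth factors and cytokines split. Of 13 measured members 6 rose and 2 fell, with a median of 0.55. Cxcl10 (NCBI gene 15945), a CXCR3 ligand that draws in T cells, had 3657 counts untreated, 3322 under hypoxia alone, 12345 with IFN-γ alone and 10134 with both, a ratio of 1.49 [1.43, 1.54]. Here the combined library was below IFN-γ alone, by a log2 ratio of -0.28 [-0.32, -0.25]. Cxcl9, another CXCR3 ligand, rose from 8 counts to 94, at 3.49, and Cxcl11, a transcribed pseudogene in this annotation, from 24 to 232, at 3.26. Il15, a growth factor for T and natural killer cells, went from 78 to 298 counts, at 1.94 [1.59, 2.33], and Lif from 669 to 1554, at 1.23. Il33, an alarmin, followed oxygen, with 22 counts untreated, 56 under hypoxia alone, 26 with IFN-γ alone and 66 with both, a ratio of 1.58 [0.89, 2.37].

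The chemokine genes Ccl2 and Ccl7 were the 2 members that fell. Ccl2 (NCBI gene 20296) had 4719 counts untreated, 2634 under hypoxia alone, 5041 with IFN-γ alone and 2302 with both, a ratio of -1.02 [-1.09, -0.95]. Ccl7 had 120, 81, 100 and 40 counts in that order, at -1.56 [-2.12, -1.04]. In both genes the libraries under hypoxic conditions were the lower ones. Csf1, which sustains macrophages, was likewise lower under hypoxic conditions and higher with IFN-γ, with 2907 counts untreated, 1781 under hypoxia alone, 5181 with IFN-γ alone and 4222 with both, and its 0.55 stayed under 2-fold.

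**Figure D3:**
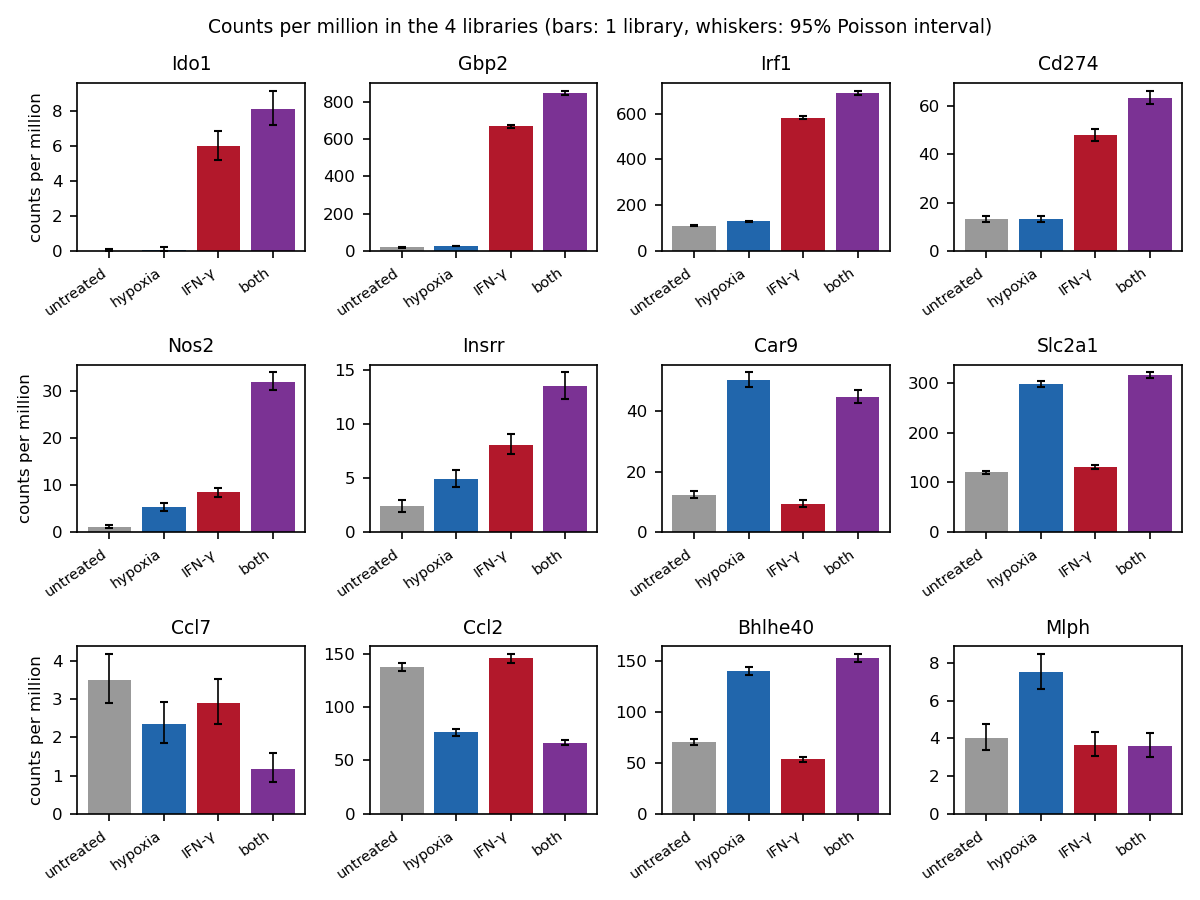
Counts scaled to library depth, in CPM (vertical axis), of 12 genes in the 4 libraries, 1 bar per library with its 95% Poisson interval from counting alone. Ido1, Gbp2, Irf1 and Cd274 are high with IFN-γ and highest with both, Car9, Slc2a1 and Bhlhe40 are high in both libraries under hypoxic conditions, Nos2 and Insrr rise with each stimulus, and Ccl2 and Ccl7 are lowest with both.

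Of 21 measured cell death genes 4 rose and none fell, beside 2.92% and 0.502% of all measured genes, and the list median was 0.21. Tnfsf10, the death ligand TRAIL, had 48 counts untreated, 50 under hypoxia alone, 410 with IFN-γ alone and 689 with both, a ratio of 3.85 [3.44, 4.31]. The inflammatory caspase gene Casp1 rose by 1.60 and Casp12 by 1.84. Mcl1, a survival protein of the BCL2 family, held 6325, 6150, 6248 and 6233 counts in the order used above, a ratio of 0.00 [-0.06, 0.05].

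Genes of the oxygen response made up the other side of the combination. Of 33 measured hypoxia response genes 14 rose and none fell, with a median of 0.93, beside 0.94 for hypoxia alone and -0.06 for IFN-γ alone. Car9 (NCBI gene 230099), the carbonic anhydrase of the cell surface, had 422 counts untreated, 1733 under hypoxia alone, 324 with IFN-γ alone and 1536 with both. Its ratio was 1.88 [1.72, 2.04] for the combination and 2.02 for hypoxia alone. P4ha2, a collagen prolyl hydroxylase, rose by 1.26, Pdk1, a kinase that inhibits pyruvate dehydrogenase, by 1.22 [1.17, 1.28], and Ndrg1 by 1.33. Bnip3, a mitophagy receptor, reached 1.66 and Selenbp1 1.91, and both are uncertain copies. Vegfa, the angiogenic factor, went from 3104 counts to 4828, at 0.65 [0.59, 0.72], under 2-fold. At the other end of the list, Pfkfb3 stood at -0.42 and Pfkfb4 at -0.15.

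The measured HIF subunits did not change by 2-fold. Hif1a had 5326 counts untreated, 5224 under hypoxia alone, 5404 with IFN-γ alone and 5094 with both, a ratio of -0.05 [-0.10, 0.01], and Arnt, its partner, stood at -0.12. Of 7 measured members the prolyl hydroxylases Egln1 and Egln3, which mark HIF for destruction, were the 2 that rose. Egln1 had 3690, 9663, 3625 and 9329 counts, at 1.35 [1.30, 1.41], and Egln3 reached 1.12 [1.01, 1.22]. The list median was 0.00, and -0.02 when libraries were scaled by total counts.

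Glucose uptake, glycolysis and lactate genes had a median of 0.88, and 4 of 19 measured members passed 2-fold. Slc2a1 (NCBI gene 20525), the glucose transporter GLUT1, had 4117 counts untreated, 10281 under hypoxia alone, 4507 with IFN-γ alone and 10833 with both, a ratio of 1.41 [1.36, 1.46]. The lactate exporter Slc16a3 rose by 1.13, and the phosphofructokinase genes Pfkp and Pfkl each by 1.01, with intervals of [0.97, 1.05] and [0.98, 1.04]. With total counts both stood at 0.99, under 2-fold. Ldha, at 84418 counts untreated and 153758 with both, stayed under 2-fold at 0.88 [0.87, 0.89], and Hk2 at 0.94. Slc16a1 at -0.06 and Eno2 at -0.38 [-0.67, -0.09] were the lowest. The median with hypoxia alone was 0.85, and with IFN-γ alone -0.03.

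Leaving out uncertain copies, the firmest rises in the class higher with hypoxia alone were those of Slc2a1, Car9, Gpr35, Aire, Unc13a and Kcnk2. Gpr35 had 16 counts untreated, 133 under hypoxia alone, 20 with IFN-γ alone and 115 with both, a ratio of 2.82 [2.10, 3.72]. Aire, known for thymic self-antigen expression, had 42, 246, 29 and 188 counts in that order, at 2.17 [1.69, 2.70]. Unc13a, a factor of vesicle priming, went from 279 counts to 803, at 1.54 [1.34, 1.74]. In Car9, Gpr35, Aire and Unc13a hypoxia alone had a higher count than the combination, while Slc2a1 and Kcnk2 went the other way. Combined over hypoxia alone, the intervals of Gpr35 [-0.55, 0.19] and Kcnk2 [-0.48, 0.65] held 0.

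Insrr, a receptor of the insulin receptor family that senses alkaline pH, was the firmest of the third class after Nos2. It had 82 counts untreated, 170 under hypoxia alone, 280 with IFN-γ alone and 464 with both, a ratio of 2.51 [2.18, 2.87]. Eif4e3, a cap-binding protein, went from 83 to 356 counts, at 2.11 [1.77, 2.48]. Ddx60, an RNA helicase, and Il13ra1 rose by 1.71 and 1.69. Aldh1a1, a retinal-oxidizing enzyme also used as a stem cell marker, had 20, 43, 50 and 90 counts, at 2.16 [1.48, 2.96].

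**Figure D4:**
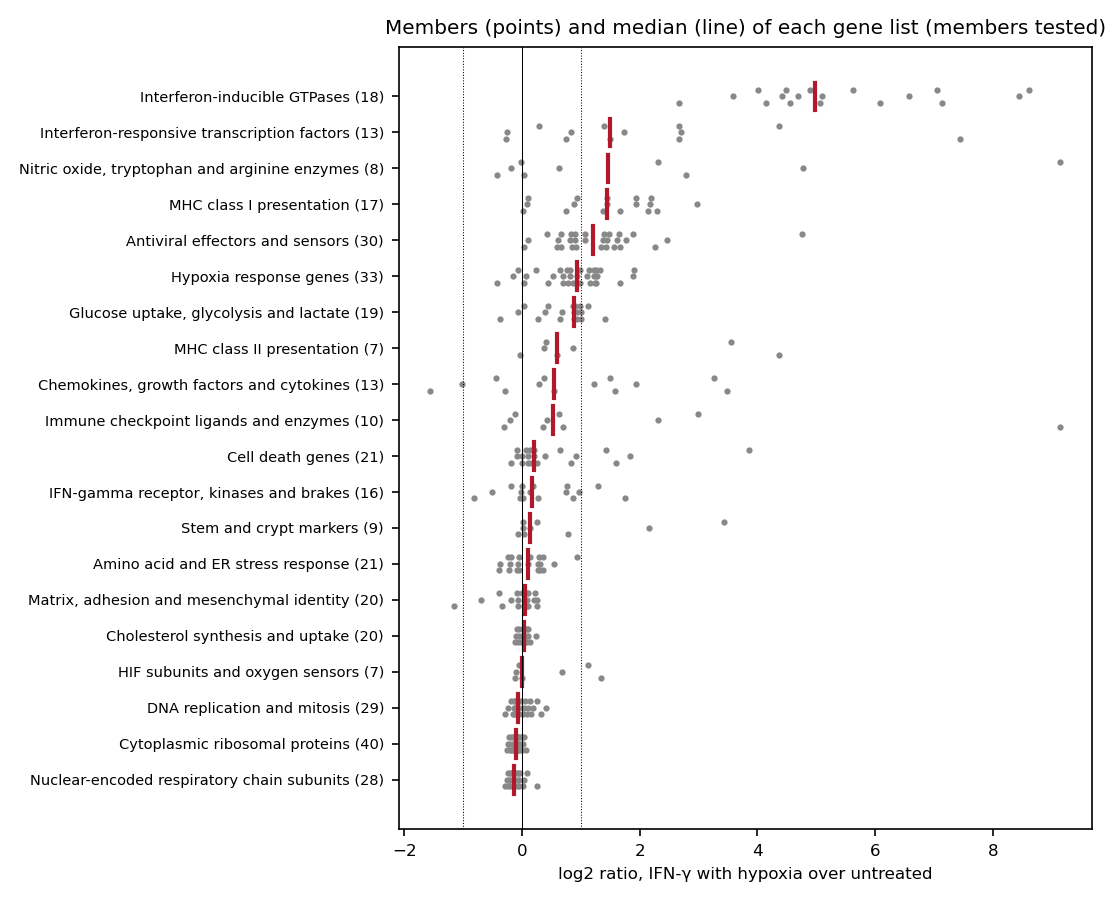
Log2 ratio of the combination over untreated (horizontal axis) for the measured members of each gene list, with the number measured in parentheses. Grey points are genes, red lines are list medians and dotted lines mark 2-fold; the medians run from 4.98 for the GTPases to -0.13 for the respiratory chain subunits.

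Several large programs stayed near 0. None of 28 measured nuclear-encoded respiratory chain subunits changed 2-fold, with a median of -0.13. Among all measured genes 2.92% rose and 0.502% fell by that much, so lists of this size would hold few calls anyway. Of the 28 intervals 23 lay below 0, beside 3219 of 12553 for all measured genes. Ndufb10, a complex I subunit, had 7326 counts untreated and 5914 with both, at -0.29 [-0.34, -0.24]. The 40 cytoplasmic ribosomal protein genes, 28 of them uncertain copies, ranged from -0.26 to 0.07 with a median of -0.10. Of their intervals 34 lay below 0 and 2 above it, beside 3219 and 3059 of 12553 for all measured genes. Neither median changed sign with either other scaling of the libraries.

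Cholesterol synthesis genes ranged from -0.12 to 0.24 with a median of 0.03 over 20 genes. The 21 genes of the amino acid and ER stress response had a median of 0.10 and none passed 2-fold, with Atf3 highest at 0.93 [0.57, 1.30] and Atf5 lowest at -0.39. DNA replication and mitosis genes had a median of -0.06 over 29 genes, from Tyms at -0.29 to Bub1 at 0.41. Mki67, the proliferation marker, had 19996 counts untreated, 21085 under hypoxia alone, 19233 with IFN-γ alone and 19512 with both, a ratio of -0.02 [-0.05, 0.01].

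Of 20 measured matrix, adhesion and mesenchymal genes, 1 fell and none rose, with a median of 0.05. Col1a1, a fibrillar collagen chain, was that gene, with 66 counts untreated, 33 under hypoxia alone, 42 with IFN-γ alone and 29 with both, a ratio of -1.16 [-1.85, -0.52]. Fn1, fibronectin, had 17149, 17926, 13791 and 20142 counts, at 0.25 [0.22, 0.28].

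Stem and crypt markers had a median of 0.13 over 9 measured members, and 2 rose, Aldh1a1 and Ly6a. Ly6a, the antigen Sca-1 and an uncertain copy, went from 44 counts to 474, at 3.43. Sox2 had 1514 counts untreated and 1513 with both, at 0.02 [-0.09, 0.12], and Myc stood at 0.02 and Cd44 at 0.13 [0.09, 0.16]. Prom1 and Pou5f1 had at most 2 counts in any library and Nanog had 0 in all 4, so none of these 3 could be compared.

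The lowered genes were few and faintly counted. Their median mean count was 37.2, against 185 for raised genes and 1043 for all measured genes, and 5 of the 63 had a mean of at least 100 counts. These 5 were Ccl2, Atoh8, the uncertain copies Fam177a2 and Gm15107, and a gene without a symbol (NCBI gene 100861696), of which the last 3 were named after their values were seen. Of the 7 genes whose interval lay wholly past 2-fold, Ccl7 was the 1 that is not an uncertain copy. The others, Srp54b, Fam177a2, Entpd4b, Nanp, Gm10488 and Gm10487, share from 52.1% to 100% of their words with another gene and were likewise named after their values were seen.

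Atoh8, a basic helix-loop-helix factor, had 529 counts untreated, 312 under hypoxia alone, 456 with IFN-γ alone and 232 with both, a ratio of -1.17 [-1.40, -0.95]. Atp8b3, a lipid flippase, had 131, 77, 95 and 55 counts, at -1.23 [-1.72, -0.77]. In both genes each single stimulus gave a count between the untreated and the combined library. Ank1, Tcp11l2, Gmpr, Casq2, Sdcbp2, Mfsd2b, Atp8b4 and Dhrs13os complete the firmest lowered genes, with ratios from -2.05 for Gmpr to -1.32 for Atp8b4. Gmpr had 31 counts untreated, 27 under hypoxia alone, 30 with IFN-γ alone and 7 with both, so its fall appears in the combined library alone, with an interval from -3.56 to -0.92. All 63 lowered genes stayed under a 2-fold rise with either stimulus, as did 12198 of all 12553 measured genes. Their median was -0.44 with IFN-γ alone and -0.54 with hypoxia alone. Both ratios share the untreated library that was used to choose these genes, which favors values below 0.

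The combined change can be set against the sum of the changes of the single stimuli on the log2 scale. The departure, combined change minus that sum, was computed for the 10443 genes that had 100 counts or more in each library, and with 1 library per condition it could not be tested. Its median was 0.00 and its central 95% ran from -0.35 to 0.42. The departure was at least 0.5 in 138 of these genes, or 1.32%, and at most -0.5 in 83, or 0.795%, a size chosen after values were seen.

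Called genes had departures of a like size. Among 165 of them with 100 counts in every library the median departure was 0.01, the central 95% ran from -0.34 to 0.38, and 132 lay within 0.25 of 0, beside 8876 of all 10443 genes. Departures of at least 0.5 were found in 3, Irak2, Bhlhe40 and the gene without a symbol, and a departure of at most -0.5 in 1, Ppp1ccb, a copy that shares 99% of its words. The minimum of 100 counts kept 162 of the 366 raised genes and 3 of the 63 lowered ones, so most rises and most falls were not assessed.

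Irak2, a kinase of Toll-like and interleukin-1 receptor signaling, had 161 counts untreated, 131 under hypoxia alone, 589 with IFN-γ alone and 708 with both, and a departure of 0.58 [0.21, 0.95]. Bhlhe40, a hypoxia-inducible repressor, had 2410, 4823, 1841 and 5243 counts, at 0.53 [0.42, 0.63]. Its count with IFN-γ was below the control under normoxic conditions and above it under hypoxic ones. Cd274 followed with 0.39 [0.18, 0.60] and Socs1 with 0.38 [0.16, 0.61].

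At the other end, Fam114a1 had 205 counts untreated, 458 under hypoxia alone, 253 with IFN-γ alone and 419 with both, a departure of -0.41 [-0.74, -0.09]. Uba7, the enzyme that activates ISG15, and Lif each gave -0.34, Nmi, an interferon-induced adaptor, -0.29, and Upp1, a uridine phosphorylase, -0.28. For Nmi the counts with IFN-γ alone and with both were 3201 and 3230, close to equal, while hypoxia alone lay above untreated at 1293 against 1034.

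**Figure D5:**
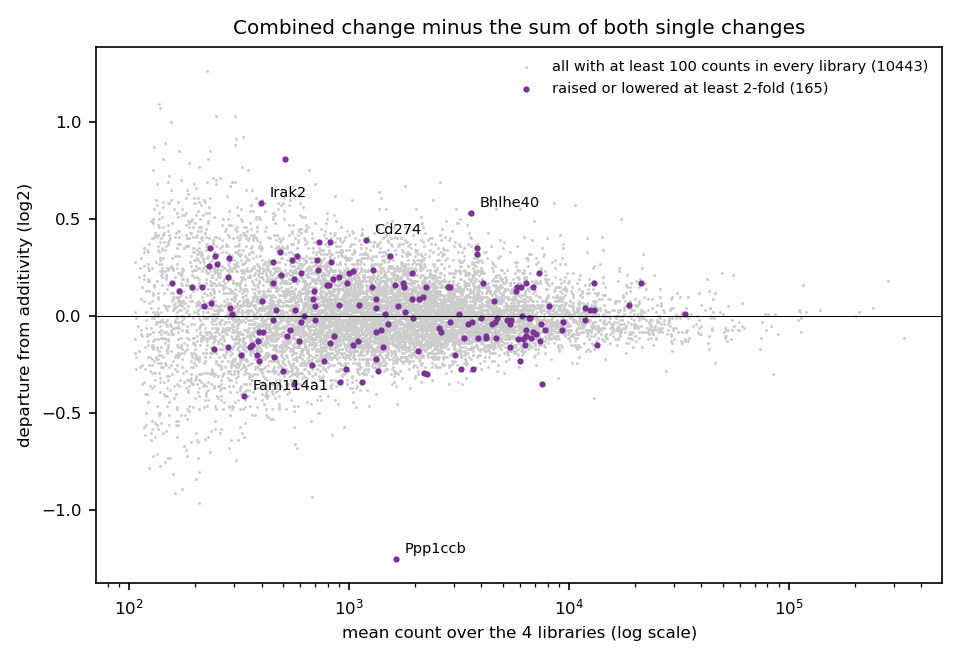
Departure from additivity (vertical axis, combined log2 change minus the sum of the single changes) against the mean count over the 4 libraries (horizontal axis, log scale) for the 10443 genes with 100 counts or more in each library. The 165 called genes in purple lie mostly within 0.25 of 0, among the grey points of all genes, with Irak2 and Bhlhe40 above and the uncertain copy Ppp1ccb below.

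A combination near 0 could also cover unlike single changes. Of 7348 genes with a combined ratio between -0.2 and 0.2 and 100 counts or more in each library, 1 had single stimuli at least 2-fold apart. That gene, Mlph, a melanosome transport protein, had 138 counts untreated, 259 under hypoxia alone, 126 with IFN-γ alone and 124 with both. For Mlph the combined ratio was -0.14 [-0.50, 0.22], with 0.89 [0.59, 1.20] for hypoxia alone, -0.12 [-0.48, 0.24] for IFN-γ alone and a departure of -0.91 [-1.38, -0.45]. Pxdc1, among the next furthest apart, had 331, 529, 266 and 364 counts, a combined ratio of 0.15, a ratio of 0.66 with hypoxia alone and -0.30 with IFN-γ alone.

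Positions of raised genes in the genome were added after values were seen. Of 359 raised genes with a position in GRCm38.p6, 105 lay within 100 kb of another raised gene, or 29.2%, and of 11918 other measured genes 916 lay as near to a raised gene, or 7.69%. The part of gene families and gene density in this was not tested. There were 7 runs of at least 4 raised genes, and they held 39. On chromosome 11 from 48865245 to 49135387, all 7 measured genes rose, among them Irgm1, Tgtp1, Ifi47 and Gm12185, with a median of 4.89, and 4 of the 7 are uncertain copies. On chromosome 3 from 142496934 to 142638008, Gbp5, Gbp7, Gbp3 and Gbp2, the 4 measured genes of the span, rose with a median of 4.79. Chromosome 17 held Psmb9, Tap1, Psmb8, Tap2 and H2-Aa between 34182030 and 34287823, 5 of 5, from 2.18 to 3.56.

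Further runs were the p200 family genes on chromosome 1, 7 of 7 with a median of 2.24 and 6 of them uncertain copies, the Trim genes on chromosome 7, 7 of 7 with a median of 1.70 and 3 uncertain copies, and a run on chromosome 18 with Iigp1 and BC023105, 5 of 5 with a median of 6.57 and 1 uncertain copy, Gm4841. The run on chromosome 16 from 35831892 to 36071561 mixed the classes, and 4 of its 6 measured genes rose. It held Parp14, Dtx3l and Parp9, which rose with IFN-γ alone, and Fam162a, a hypoxia response gene with 3142 counts untreated, 7769 under hypoxia alone, 3119 with IFN-γ alone and 7436 with both.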

How the data were processed

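The authors deposited raw counts of reads per gene, 1 column per library. Sample labels describe stranded poly-A libraries. Reads were aligned with HISAT2 and counted with featureCounts on mm10. The annotation, strand setting and treatment of reads on several genes are not given in the sources used here. Libraries were scaled with TMM (edgeR 4.0.16, R 4.3.3), 0.5 counts were added, and ratios at or past 2-fold were called without a test. Intervals of ratios are exact Clopper-Pearson intervals of the counts at 95%, and those of departures come from Poisson error. They were tested on simulated counts with Poisson error only, which hold no variation between cultures. Genes named were those with the bound nearest 0 furthest out, the genes the study names, the extremes of each list, class and departure, and the genes near 0 with single stimuli furthest apart. Members and lists were chosen with earlier results of these data known. Some genes are not reported here. Symbols, positions and sequences came from RefSeq GRCm38.p6, the assembly of mm10, and shared words from GENCODE M21 transcripts. Alternatives were other scalings, counts added, minimum counts and fold limits, and leaving out copies. Tables and plots used Python 3.11.15 with scipy 1.17.1.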

Additional observations from a re-analysis of the deposited data

Results flagged for a closer look

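In the named genes and list members below, IFN-γ moved the count in opposite directions under normoxic and hypoxic conditions. The counting intervals of both ratios were off 0 with TMM scaling. For Tgfb1 and Cdc20 under hypoxic conditions they began at 0.01, so another scaling could bring them to 0. The value given is the departure from additivity on the log2 scale, and with 1 library per condition the difference was not tested. Among signaling genes it was 0.53 for Bhlhe40, -0.27 for Ccl2 and 0.31 for Tgfb1. Genes of metabolism and the stress response gave 0.10 for Gapdh, -0.19 for Ndufa9, 0.25 for Slc7a5 and -0.33 for Ddit3. Cdc20, a mitotic activator, gave 0.14 and Fn1, fibronectin, 0.50. Ribosomal protein genes gave -0.17 for Rps14, -0.22 for Rpl37, -0.14 for Rps3 and -0.12 for Rpl30. Gapdh, Cdc20 and Rpl30 are uncertain copies, which share at least 20% of their words with another gene.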

How the results depend on the processing

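Scaling by total counts or DESeq2 size factors, 5 added counts and leaving out uncertain copies gave 353, 366, 334 and 304 raised and 64, 63, 42 and 53 lowered genes. Total counts took the all-gene median to -0.03. Other minimum counts gave 720 raised and 293 lowered genes at a mean of at least 5, and 215 and 5 at 100. Calling at 1.5-fold gave 839 and 266, at 4-fold 109 and 4, and an interval wholly past 2-fold 227 and 7. With 1.5-fold limits the classes held 295 genes higher with IFN-γ alone, 199 higher with hypoxia alone and 345 between, and a mean of at least 100 counts left 60 between. That minimum took the median of the chemokine list to 0.46 and of the nitric oxide, tryptophan and arginine list to 0.63. These minima and limits change by construction which genes are counted. Of 603 ratios of 201 named genes above the minimum count, 593 stayed within their counting interval. With total counts Sox2 at -0.01 and Ndufa9 at -0.01 changed sign near 0, and Pfkp and Pfkl, at 0.99 each, were no longer called. With 5 counts added Ido1 gave 5.85, Batf2 5.47 and BC023105 5.12. The other 7 moved by at most 0.03 with another scaling. The cause was not tested.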
